A study of Homo sapiens with 4 samples.

Results

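The genes described here write, copy and remove methyl groups on cytosine in DNA. They are the 10 genes DNMT1, DNMT3A, DNMT3B, UHRF1, UHRF2, TET1, TET2, TET3, TDG and MBD4, picked by symbol from an RNA sequencing table of 38972 genes. All 10 were in the table, and all 10 were among the 15651 genes that reached a mean of 1 TPM (a transcript's share of its library, corrected for transcript length) and were tested. The libraries came from HEK293T cells, an established human embryonic kidney line. Per the series' design text and the titles, 2 libraries are from cells overexpressing Flag, a short peptide tag that serves as control, and 2 are from cells overexpressing RNase H1, which digests RNA paired with DNA. The labels name no vector, clone, dose or time. They do not say whether replicates were separate cultures, so p-values measure only the spread between these libraries, which may be technical.

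Methylation of cytosine in CG dinucleotides (CpG) is set by DNMT3A and DNMT3B. It is copied onto the new strand after replication by DNMT1, which UHRF1 brings to half-methylated DNA. TET enzymes oxidise the methyl group. The glycosylase TDG cuts out some of the oxidised bases, so that base excision repair can put back a plain cytosine. MBD4 is a glycosylase that removes the thymine left when methylated cytosine loses its amino group. The comparison asks how the transcripts of this machinery stood in cells given RNase H1 relative to cells given the Flag tag.

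RNASEH1, the human gene of RNase H1, was listed at 32.09 and 32.8 TPM with Flag and at 29.93 and 29.67 TPM with RNase H1 (adjusted p = 0.260), so it was not higher in the libraries labelled as overexpressing RNase H1. The labels do not say whether the construct carries the human coding sequence, and without that the level of RNASEH1 cannot check them. Groups are therefore named by their labels. "With Flag" and "with RNase H1" stand for the libraries so labelled, and each direction is that of RNase H1 relative to Flag. All 13 genes chosen as markers of HEK293T cells (embryonic kidney and neurofilament genes) were tested, and their summed level was 1452 and 1469 TPM with Flag and 1465 and 1435 TPM with RNase H1. VIM made up most of that sum, and single markers differed: 2 were called higher, 4 lower and 7 were not called. IRS4, an insulin receptor substrate abundant in these cells, fell from 216.94 and 217.96 TPM to 106.57 and 99.86 TPM (log2 fold change of TPM + 1 -1.07 ± 0.05, SE; adjusted p = 0.00223). NEFM (-0.52 ± 0.07), NEFL (-0.41 ± 0.06) and LIN28B (-0.26 ± 0.06) also fell, and HOXA10 (0.50 ± 0.05) and VIM (0.15 ± 0.03) rose. Summed markers of blood cells stood at 9.65 to 11.2 TPM with Flag and 9.99 to 11.4 with RNase H1 (2 of 9 tested, CD3D and HBB at 0). Fibroblast markers stood at 20.6 to 21.3 and 16.6 to 20.1 TPM (1 of 8 tested), epithelial markers at 6.6 to 7.37 and 6.5 to 9.86 TPM (3 of 9 tested, KRT7 at 0), and hepatocyte markers at 1.38 to 2.1 and 2.83 to 2.95 TPM (1 of 7 tested, TTR and SERPINA1 at 0). The part of such cells in the results was not tested. In bulk RNA, fewer cells expressing a gene and less of its RNA per cell cannot be told apart.

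DNMT3B fell and TDG rose, and the other 8 genes did not pass the test. That is 1 of 10 called higher, against 6.3% of all tested genes, and 1 of 10 called lower, against 5.54% (limma; a call is an adjusted p under 0.05). In either direction 11.8% of tested genes were called. Values of the groups did not overlap for 8 of the 10 genes, against 60.7% of all tested genes. On average 6 genes were higher and 4 lower. Fold changes are given as the log2 of TPM + 1 unless a ratio of TPM is named. Their median was 0.12, against 0.0035 for all tested genes. The largest was 0.35 in size, and the median size was 0.25, against 0.17 for all tested genes.

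In fits that left out 1 library, the log2 fold change was -0.39 to -0.29 for DNMT3B (adjusted p 0.122 to 0.178) and 0.22 to 0.32 for TDG (0.0985 to 0.169), so neither was called whichever library was left out. Such fits keep 1 residual degree of freedom, and the spread of the lone library's group is taken from the other group. Few of all 15651 genes were called in them, for a reason that was not tested. Both calls were lost as well with no filter on low values (DNMT3B 0.103, TDG 0.101) and with variances fitted without an intensity trend (0.104 and 0.120), where 0 and 1 of all genes passed.

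**Figure D1:**
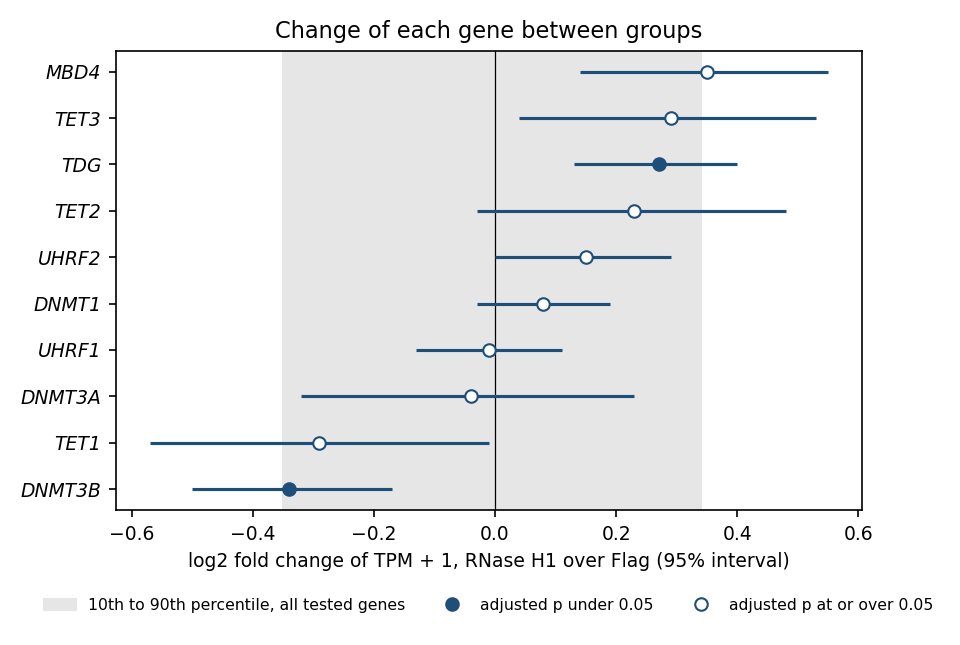
Log2 fold change of TPM + 1 (x axis, RNase H1 over Flag) of the 10 genes (y axis), with the 95% interval of the limma fit as a line. Filled points passed at an adjusted p under 0.05, and the grey band runs from the 10th to the 90th percentile of all tested genes (-0.35 to 0.34). DNMT3B and TDG are the filled points, MBD4 lies at the upper edge of the band, and UHRF1 and DNMT3A lie near 0.

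With Flag the levels fell into an upper and a lower range. DNMT1 was highest at 121 TPM on average, followed by TDG (76.8), UHRF1 (67.8), DNMT3B (44.1), UHRF2 (42.6) and MBD4 (36.4). A 3.6-fold step separated MBD4 from TET1 (10.1), and DNMT3A (9.57), TET3 (8.21) and TET2 (7.65) closed the order. Ranges of neighbours in that order overlapped for DNMT3B with UHRF2 and for TET1 with DNMT3A, and for no other pair of neighbours. With RNase H1, DNMT1, TDG and UHRF1 again led in that order, but DNMT3B (34.7 TPM) stood below UHRF2 (47.2) and MBD4 (46.4), with both of which it had no overlap. TET1, at rank 7 of 10 with Flag, was at rank 10 with RNase H1, with values that overlapped those of TET2. Among all tested genes DNMT1 lay at percentile 92.5 of level and TET2 at percentile 37.4.

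**Figure D2:**
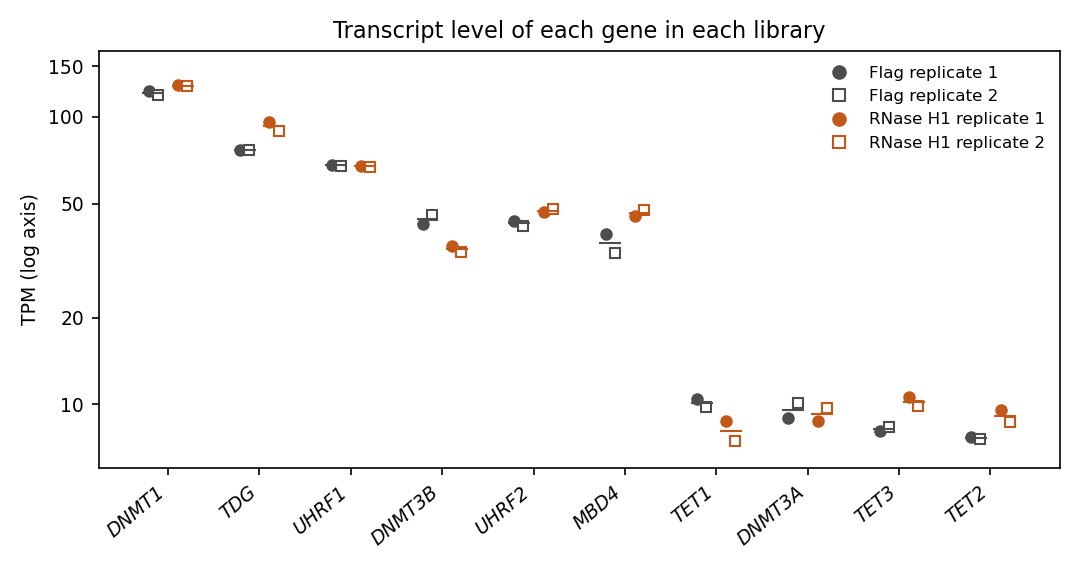
TPM of each gene in each of the 4 libraries (y axis, log scale), with genes on the x axis in the order of their Flag mean. Circles and squares are the 2 replicates, and short lines are group means. DNMT3B sits lower and TDG and MBD4 higher in both RNase H1 libraries, and the 4 values of UHRF1 lie between 67.13 and 68.18 TPM.

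DNMT1 and UHRF1, the pair that maintains methylation, did not pass. DNMT1, the methyltransferase that follows the replication fork (minus strand of chromosome 19, from 10133345 to 10231286; gene positions follow GRCh38 and GENCODE release 29 throughout), stood at 123.15 and 119.11 TPM with Flag and at 128.71 and 128.03 TPM with RNase H1. Both RNase H1 values lay above both Flag values. The means were 121 ± 2.86 and 128 ± 0.481 TPM (SD, n = 2), with a log2 fold change of 0.08 ± 0.05 (SE), a 95% interval from -0.03 to 0.19 and an adjusted p of 0.271. S1PR2 overlaps DNMT1 on the same strand over 9854 bases and was listed at 2.92 to 3.92 TPM over the 4 libraries.

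UHRF1, which recognises half-methylated CpG (chromosome 19, 4903080 to 4962154, plus strand), had the smallest change of the 10. Its values were 68.18 and 67.37 TPM with Flag and 67.5 and 67.13 TPM with RNase H1. The groups overlapped (log2 fold change -0.01 ± 0.05, SE; adjusted p = 0.916), and the 95% interval of the change ran from a 0.912-fold to a 1.08-fold level. UHRF2, its paralogue, which binds oxidised methylcytosine (chromosome 9, 6413151 to 6507054, plus strand), was listed at 43.53 and 41.63 TPM with Flag and at 46.82 and 47.66 TPM with RNase H1. The groups of UHRF2 did not overlap, and the difference did not pass (0.15 ± 0.06, SE; adjusted p = 0.156). The TPM of UHRF1 was 1.57 and 1.62 times that of UHRF2 with Flag and 1.44 and 1.41 times with RNase H1. The log2 of that ratio was 0.67 ± 0.03 with Flag and 0.51 ± 0.02 with RNase H1 (SD, n = 2; exact permutation p = 0.333, two-sided, the smallest that 2 against 2 libraries can give).

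UHRF1 and DNMT1 are known as genes that E2F factors switch on ahead of S phase. A stretch before 1 UHRF1 start (chr19:4909894-4910143, plus strand, GRCh38.p14, RefSeq) is shown because it carries an E2F motif while the level of UHRF1 hardly differed between groups. Capitals mark CpG dinucleotides, of which it holds 32 in 250 bases.
UHRF1: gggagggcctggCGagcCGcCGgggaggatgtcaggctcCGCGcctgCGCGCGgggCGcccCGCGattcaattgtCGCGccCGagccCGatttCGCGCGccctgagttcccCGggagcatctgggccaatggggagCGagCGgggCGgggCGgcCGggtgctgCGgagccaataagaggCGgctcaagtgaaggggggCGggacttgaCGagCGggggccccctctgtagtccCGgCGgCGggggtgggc
The E2F motif was searched as TTTGGCGC, TTTCGCGC, TTTCCCGC or TTTGCCGC on both strands of each RefSeq window, from 250 bases before to 50 after a start. It occurred in 3.31% of all 35116 windows and in 3 of the 21 windows of the 10 genes, which belong to DNMT1 and UHRF1. The UHRF1 start shown and the start of the DNMT1 window are downstream starts. For each of them, 4 annotated transcripts of the gene start over 300 bases further upstream. The TPM do not separate these starts. A match is a description of the letters and not a binding site. From the list of G1/S and S phase genes, 8 of 20 were called higher, 0 lower and 12 not called (median log2 fold change 0.14). Over all tested genes 6.3% were called higher and 5.54% lower. The replication licensing factor CDC6 rose from 83.3 ± 3.08 to 132 ± 2.37 TPM (log2 0.66 ± 0.05, SE; adjusted p = 0.00596), and E2F2, itself an E2F factor, from 14.4 ± 0.877 to 20.2 ± 0.0354 TPM (0.46 ± 0.08; adjusted p = 0.0279). CCNE2, a cyclin of the S phase entry kinase, rose by 0.82 ± 0.09, and CDC25A, the phosphatase that activates that kinase, by 0.46 ± 0.05. The 18 genes of G2 and mitosis held 1 call upward and 3 downward, and the remaining 14 did not pass (median 0.06), with CENPF, CENPE and BUB1B of the kinetochore at -0.40 ± 0.05, -0.66 ± 0.12 and -0.24 ± 0.06 and the mitotic kinase CDK1 at 0.20 ± 0.05, a call lost after GC correction (adjusted p = 0.0938). The part of cell cycle phase in the levels of the methylation genes was not tested.

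Of the enzymes that set new methylation, DNMT3B fell and DNMT3A did not pass. DNMT3B, the main such enzyme of early embryonic cells (chromosome 20, 32762385 to 32809356, plus strand), stood at 42.45 and 45.67 TPM with Flag and at 35.45 and 33.88 TPM with RNase H1. Both RNase H1 libraries were lower than both Flag libraries. The means were 44.1 ± 2.28 and 34.7 ± 1.11 TPM (SD, n = 2), a 0.787-fold level, with a log2 fold change of -0.34 ± 0.07 (SE), a 95% interval from -0.50 to -0.17 and an adjusted p of 0.0350. That change lay at percentile 10.8 of the fold changes of all tested genes. The call was kept after correction for transcript GC content (-0.31; adjusted p = 0.0381).

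DNMT3A (chromosome 2, 25227855 to 25342590, minus strand) stood at 9 and 10.14 TPM with Flag and at 8.78 and 9.73 TPM with RNase H1. Its groups overlapped, and its log2 fold change was -0.04 ± 0.11 (SE; 95% interval -0.32 to 0.23; adjusted p = 0.824). The TPM of DNMT3B was 4.72 and 4.5 times that of DNMT3A with Flag and 4.04 and 3.48 times with RNase H1. On the log2 scale the ratio went from 2.20 ± 0.05 to 1.91 ± 0.15 (SD, n = 2; exact permutation p = 0.333, two-sided, again the smallest possible), and the 2 groups did not overlap. DNMT3A and DNMT3B together made up 29.5% and 31.9% of the summed TPM of the 3 methyltransferases with Flag and 25.6% and 25.4% with RNase H1. The sum itself was 175 TPM in both Flag libraries and 173 and 172 TPM in the RNase H1 libraries, without overlap.

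The RefSeq window for DNMT3B is shown because DNMT3B is the gene that fell, and because it is poor in the very dinucleotide that these enzymes methylate. It belongs to a downstream start, at base 32779852, and 5 annotated transcripts of DNMT3B start over 300 bases further upstream, the first at base 32762385. The TPM do not separate these starts. The 250 bases before the downstream start (chr20:32779602-32779851, plus strand, GRCh38.p14) hold 3 CpG, again in capitals.
DNMT3B: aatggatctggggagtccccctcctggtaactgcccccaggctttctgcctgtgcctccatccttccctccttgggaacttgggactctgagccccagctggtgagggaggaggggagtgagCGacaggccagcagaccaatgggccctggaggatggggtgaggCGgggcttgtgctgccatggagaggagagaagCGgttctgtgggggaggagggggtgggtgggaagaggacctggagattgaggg
The whole window of 300 bases also held 3 CpG (percentile 18.2 of all windows), where the median over all windows was 14. The windows of the other 9 genes held from 6 (TET1) to 46 CpG (DNMT3A and UHRF1). The TET1 window with 6 CpG also belongs to a downstream start, 39612 bases from the TET1 start in GENCODE release 29. The TET1 window nearest to that GENCODE start held 10 CpG.

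None of the 3 TET genes passed the test, and differences between their fold changes were not tested. TET1 (chromosome 10, 68560656 to 68694482, plus strand), a TET enzyme of embryonic cells that binds CpG-rich DNA through a CXXC domain, stood at 10.46 and 9.78 TPM with Flag and at 8.73 and 7.45 TPM with RNase H1. Both RNase H1 values were the lower ones (log2 fold change -0.29 ± 0.12, SE; 95% interval -0.57 to -0.01; adjusted p = 0.145). TET3, the TET enzyme of the oocyte and of neurons (chromosome 2, 73986404 to 74108176, plus strand), stood at 8.07 and 8.35 TPM with Flag and at 10.58 and 9.91 TPM with RNase H1, with no overlap (0.29 ± 0.10; adjusted p = 0.111). TET2, which lacks a CXXC domain of its own (chromosome 4, 105145875 to 105279816, plus strand), stood at 7.71 and 7.59 TPM with Flag and at 9.55 and 8.69 TPM with RNase H1 (0.23 ± 0.11; adjusted p = 0.206). Its groups did not overlap either.

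The summed TPM of TET1, TET2 and TET3 overlapped between groups, at 26.2 and 25.7 with Flag and 28.9 and 26.1 with RNase H1. Their makeup did not overlap. TET1 made up 39.9% and 38.0% of the sum with Flag and 30.2% and 28.6% with RNase H1. TET2 made up 29.4% and 29.5%, then 33.1% and 33.4%, and TET3 made up 30.8% and 32.5%, then 36.7% and 38.0%. TET1 was thus the most abundant TET transcript in both Flag libraries and the least abundant in both RNase H1 libraries. These shares were chosen after the values were seen and are a description with no test.

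**Figure D3:**
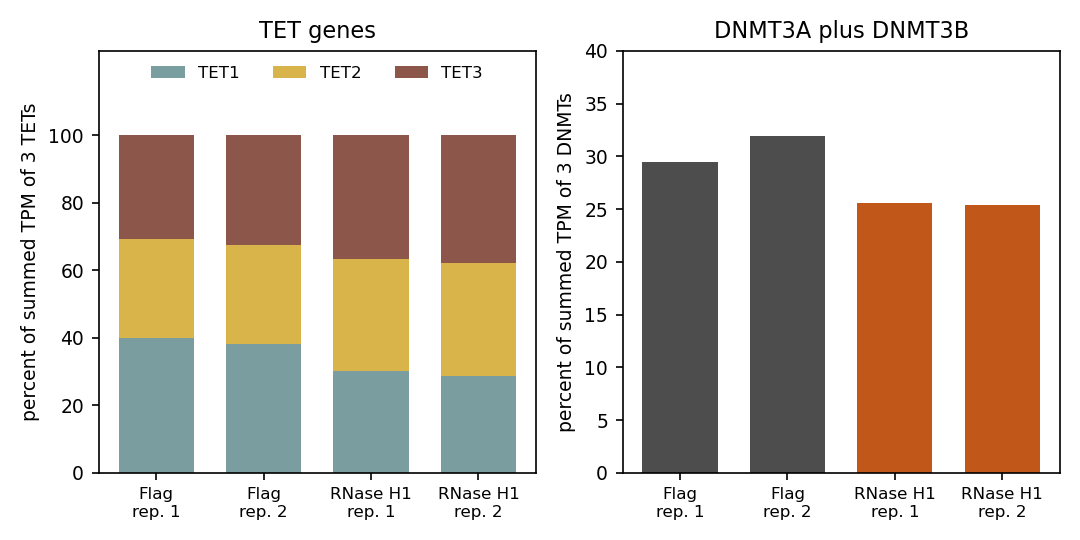
Left, the share of TET1, TET2 and TET3 in their summed TPM in each library (y axis, percent). Right, the share of DNMT3A plus DNMT3B in the summed TPM of the 3 methyltransferases. The TET1 share is at or above 38.0% with Flag and at or below 30.2% with RNase H1, and the DNMT3A plus DNMT3B share is at or above 29.5% with Flag and at or below 25.6% with RNase H1.

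TDG rose, and MBD4, the other glycosylase, was higher by more but missed the threshold. TDG excises some oxidised cytosines and mismatched thymine (chromosome 12, 103965804 to 103988874, plus strand). It stood at 76.88 and 76.69 TPM with Flag and at 95.78 and 89.68 TPM with RNase H1. Both RNase H1 libraries were higher, and the Flag libraries lay close together. The means were 76.8 ± 0.134 and 92.7 ± 4.31 TPM (SD, n = 2), a 1.21-fold level, with a log2 fold change of 0.27 ± 0.05 (SE), a 95% interval from 0.13 to 0.40 and an adjusted p of 0.0358. That change lay at percentile 85.4 of the fold changes of all tested genes. The TDG call was lost after correction for transcript GC content (0.20; adjusted p = 0.0533), and the longest TDG transcript had 39.5% GC. A processed pseudogene, TDGP1, lies on the same chromosome and may share reads with TDG. UHRF2 and TET1 also have processed pseudogenes, UHRF2P1 and TET1P1, and none of these copies was listed with a TPM.

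MBD4 (chromosome 3, 129430944 to 129440179, minus strand) stood at 39.03 and 33.75 TPM with Flag and at 45.21 and 47.59 TPM with RNase H1. The groups did not overlap, but the Flag values differed by more than those of TDG (36.4 ± 3.73 against 46.4 ± 1.68 TPM, SD, n = 2; log2 0.35 ± 0.08, SE; adjusted p = 0.0516). MBD4 was called in 3 of 14 alternative settings: among genes of at least 5 TPM (adjusted p = 0.0299), with robust variances (0.0492) and with the replicate block (0.0357). Without Flag replicate 1 its log2 fold change was 0.45, and without Flag replicate 2 it was 0.24. IFT122, on the opposite strand, overlaps MBD4 over 144 bases and was listed at 15.51 and 14.76 TPM with Flag and at 12.27 and 12.59 TPM with RNase H1, the opposite order. Summed over TDG and MBD4, the glycosylases stood at 116 and 110 TPM with Flag and at 141 and 137 TPM with RNase H1.

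The bases before the TDG start are shown as the counterpart to those of DNMT3B, since TDG is the gene that rose. They are the stretch of the RefSeq window that lies outside annotated exons (chr12:103965709-103965803, plus strand, GRCh38.p14), which ends 69 bases before the RefSeq start and holds 8 CpG in 95 bases, in capitals.
TDG: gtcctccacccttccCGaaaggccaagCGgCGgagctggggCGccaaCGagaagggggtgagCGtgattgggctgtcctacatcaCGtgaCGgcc
The whole TDG window held 22 CpG (percentile 62.3). The stretch holds CACGTG, the E-box that MYC and USF factors bind, and CCAAT, the box of NF-Y, on the opposite strand, both searched on both strands. CACGTG occurred in 7.26% of all windows and in 5 of the 21 windows of the 10 genes (DNMT3A, TDG, TET2 and TET3). CCAAT occurred in 34.6% of all windows and in 8 of the 21. Windows of the same gene can overlap, so a site can be counted more than once, as for CACGTG in DNMT3A and CCAAT in TET1. Both are descriptions of the letters in these windows.

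**Figure D4:**
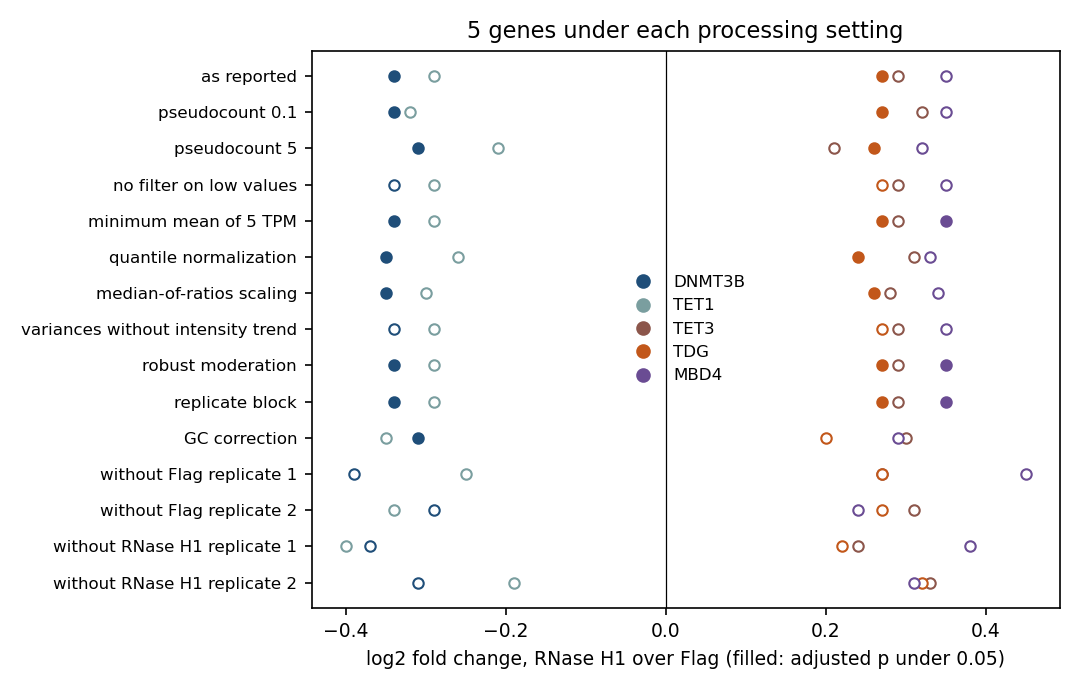
Log2 fold change (x axis, RNase H1 over Flag) of DNMT3B, TET1, TET3, TDG and MBD4 under the reported setting and 14 others (y axis). Filled points had an adjusted p under 0.05. Points of each gene stay on 1 side of 0 in all settings, and none is filled in the 4 fits that leave out a library.

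The genes whose 4 values were most like those of DNMT3B, among 11244 others with a mean of at least 5 TPM, were OXA1L, MIIP and CYBA (Euclidean distance between the libraries' deviations from each gene's mean log2 value: 0.0156, 0.0190 and 0.0200). OXA1L, which inserts proteins into the mitochondrial inner membrane, stood at 99.96 and 106.16 TPM with Flag and at 83.67 and 80.18 with RNase H1. Nearest to TDG were GLO1, CCNC and SCAMP1-AS1 (0.0096, 0.0123 and 0.0127). GLO1, a glyoxalase, stood at 762.74 and 766.48 TPM with Flag and at 956.49 and 892.98 with RNase H1. MIIP and SCAMP1-AS1 were not called (adjusted p = 0.0574 and 0.160).

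Around these 10 genes, lists of genes that work with them or depend on them were read from the same fit. The shares over all tested genes to set beside each list are 6.3% called higher and 5.54% called lower. Leaving aside the cell markers, 36 genes named here were called. All 36 calls were lost with no filter on low values and with variances without an intensity trend. In fits without 1 library, where few of all genes were called, they were lost as well, except GADD45B and GCNA without Flag replicate 2. Partners of the methyltransferases and enzymes of the histone marks that guide them had 2 higher, 4 lower and 11 not called of 17 tested (median log2 fold change -0.02). LIG1, the ligase of the lagging strand and a partner of UHRF1, fell from 42.9 ± 1.55 to 28.4 ± 1.85 TPM (-0.58 ± 0.07, SE; adjusted p = 0.0140). PCNA, the sliding clamp that holds DNMT1 at the fork, rose from 432 ± 3.56 to 528 ± 14.8 TPM (0.29 ± 0.04; adjusted p = 0.0146). SETD2, which writes the H3K36 trimethylation read by DNMT3 enzymes, rose by 0.30 ± 0.06, and EHMT2, an H3K9 methyltransferase, was at -0.41 ± 0.08, a call lost after GC correction (adjusted p = 0.0522). DNMT3L, the inactive partner of DNMT3 enzymes in germ cells, was not tested, with at most 0.22 TPM.

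A list of readers of methylated cytosine and related proteins had 0 higher, 1 lower and 9 not called of 10 tested (median -0.01). The member called was MBD6 at -0.31 ± 0.07 (SE; adjusted p = 0.0406), which is named for its domain but, like MBD5, is known not to bind methylated CpG. That call was lost after GC correction (0.0808). MBD1, which binds methylated CpG (0.24 ± 0.07), ZBTB38, which binds methylated DNA through zinc fingers (0.32 ± 0.11), and MBD5 (-0.24 ± 0.18) did not pass (adjusted p = 0.0727, 0.108 and 0.417).

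A list of other genes of base excision repair had 1 higher, 4 lower and 13 not called of 18 (median -0.07). It holds genes of the steps that follow TDG and MBD4, but also other glycosylases, among them NTHL1. The counts are therefore not of the later steps alone. FEN1, the flap nuclease, stood at 121.33 and 119.96 TPM with Flag and rose to 145.87 and 152.94 TPM (0.31 ± 0.05, SE; adjusted p = 0.0196). APEX1, the endonuclease that cuts the site a glycosylase leaves, fell from 247 ± 1.28 to 212 ± 0.0636 TPM (-0.22 ± 0.04; adjusted p = 0.0255). PARP1, a sensor of strand breaks, fell by 0.23 ± 0.04, and NTHL1, a glycosylase of oxidised pyrimidines, fell by 0.59 ± 0.11 on the log2 scale. TDG and FEN1 were thus higher while APEX1, the nuclease next after TDG, was lower, as were PARP1 and NTHL1. The polymerase POLB, at 0.30 ± 0.09, was 1 of the 13 not called (adjusted p = 0.0823). The differences between these changes were not tested.

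A list mainly of TET partners and of enzymes that make or use 2-oxoglutarate, the TET co-substrate, had 0 higher, 3 lower and 11 not called of 14 (median -0.14). It also holds VHL, a gene of neither kind, which was not called. PSAT1, of serine synthesis, which releases 2-oxoglutarate, fell from 170 ± 0.615 to 136 ± 4.62 TPM (-0.32 ± 0.05, SE; adjusted p = 0.0175). D2HGDH, which clears the TET inhibitor 2-hydroxyglutarate, was at -0.74 ± 0.14 and IDH3G, an isocitrate dehydrogenase subunit, at -0.26 ± 0.06, calls that were both lost after GC correction (adjusted p = 0.0545 and 0.118). IDH1 (-0.24 ± 0.07; adjusted p = 0.0670) did not pass.

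Genes of methyl donor supply had 0 higher, 3 lower and 9 not called of 12 tested (median -0.14). The folate carrier SLC19A1 stood at 14.93 and 15.1 TPM with Flag and fell to 8.19 and 8.68 TPM (-0.76 ± 0.09, SE; adjusted p = 0.0117). AHCY, which clears the methyltransferase inhibitor S-adenosylhomocysteine, fell by 0.29 ± 0.05 and MTHFD1, of folate metabolism, by 0.26 ± 0.05, and SHMT1 was at -0.19 ± 0.06 without a call (adjusted p = 0.113).

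Cytosine deaminases and GADD45 genes, both named as routes of active demethylation, had 3 higher, 0 lower and 5 not called of 8 tested (median 0.31). The 3 called were the GADD45 genes, and GADD45B rose from 18.3 ± 2.66 to 54.4 ± 2.38 TPM (1.53 ± 0.11, SE; adjusted p = 0.00497). GADD45A rose by 0.65 ± 0.05, and GADD45G, at 1.71 and 1.68 TPM with Flag and 3.52 and 3.6 with RNase H1, by 0.76 ± 0.16. No deaminase was called, and APOBEC3C stood at -0.21 ± 0.07 (adjusted p = 0.119).

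Of 26 germline genes known to be silenced by promoter methylation, 3 passed the filter on low values, and 4 (TEX101, GTSF1, DPPA3 and DPPA5) were at 0 in all libraries. Of the 3, GCNA rose from 5.44 ± 1.32 to 22.1 ± 0.912 TPM (1.86 ± 0.15, SE; adjusted p = 0.00683) and MAGEB2 from 12.3 ± 0.311 to 16.6 ± 0.247 TPM (0.40 ± 0.08; adjusted p = 0.0360). SYCP3 stood at 1.92 and 1.02 TPM with Flag and 2.06 and 1.45 with RNase H1, which overlap. All 3 were thus already expressed with Flag, and the other genes of the list were not tested. Of 20 imprinted genes 10 were tested, with 2 higher, 0 lower and 8 not called (median -0.10). PHLDA2, a maternally expressed growth regulator, rose from 10.5 ± 0.523 to 21.0 ± 2.13 TPM (0.93 ± 0.10; adjusted p = 0.0101). PLAGL1, a zinc finger gene, was at 0.26 ± 0.06, a call lost in 6 of the alternatives that kept all libraries. GRB10 (-0.24 ± 0.06; adjusted p = 0.0620) and SGCE (0.30 ± 0.10; adjusted p = 0.101) did not pass. DNA methylation itself was not analysed here.

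**Figure D5:**
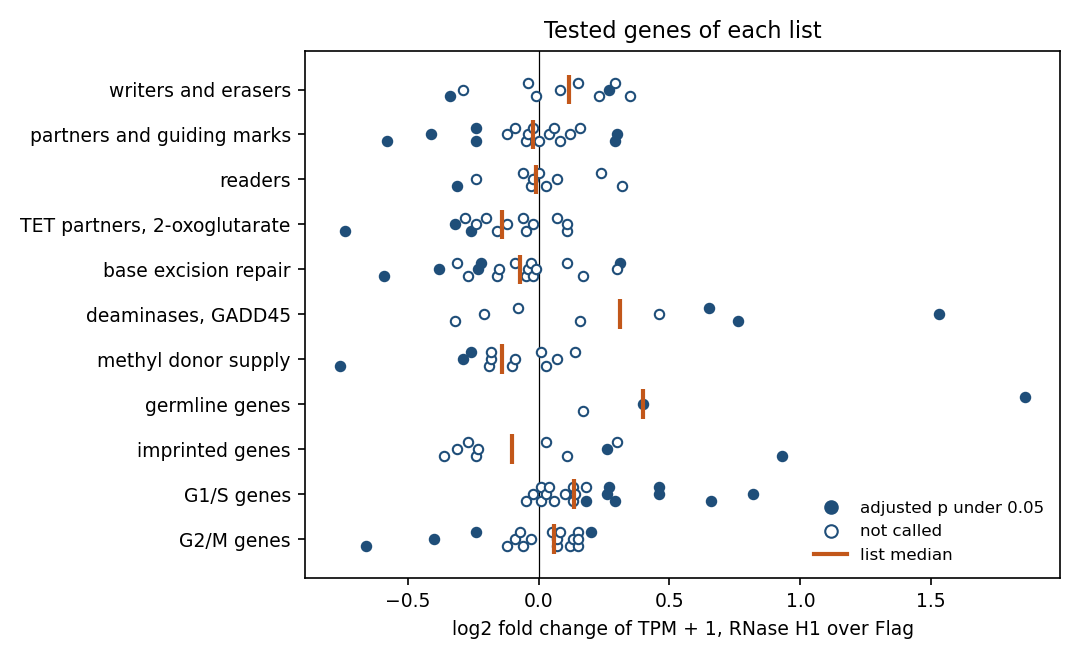
Log2 fold change of TPM + 1 (x axis, RNase H1 over Flag) of every tested gene of the writers and erasers and of the 10 companion lists (y axis). Filled points had an adjusted p under 0.05, and orange bars are list medians. The writers and erasers lie between -0.34 and 0.35, while single genes of other lists reach 1.86 (GCNA) and 1.53 (GADD45B).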

How the data were processed

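RNA of 4 HEK293T libraries (2 per group) was sequenced from mRNA libraries. The authors deposited 1 table of TPM with a column per library, and no column was without a sample. Per the submitters' processing notes, STAR and hg38 were used; for versions, quantifier, annotation and strandedness, the entry is: not given in the sources used here. TPM keep no depth, which is therefore unknown, and counting intervals were not made.

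The filter was a mean of 1 TPM, and values were compared as log2(TPM + 1) with limma 3.58.1 in R 4.3.3 (group term, moderated variances with an intensity trend, two-sided, Benjamini-Hochberg over all 15651 tested genes). Group errors are SD over 2 libraries and errors of fold changes are SE of the fit. Gene models are from GENCODE release 29 (24636 genes matched by current symbol, 11059 by identifier, 167 by release symbol, 3110 unmatched). Promoter windows are from RefSeq (GRCh38.p14), where all 10 genes matched, 21 windows in all; RefSeq windows were cut to bases outside GENCODE exons. The genes, lists and ratios were chosen with earlier results of these data known. The text names all 10 genes, up to 4 tested genes per companion list by smallest p, the 3 genes nearest in profile to each called gene, and RNASEH1; genes named outside that rule were chosen after their values were seen. Same-numbered libraries did not deviate together (correlation 0.0307), so the main fit has no block. Alternatives were other pseudocounts, filters, scalings and variance settings, the replicate block, a GC correction (spline with 4 degrees of freedom) and leaving out each library. Figures used matplotlib 3.10.9 in Python 3.11.15.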

Additional observations from a re-analysis of the deposited data

How the results depend on the processing

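In the main limma fit 1853 of 15651 tested genes were called. At an unadjusted p under 0.05 stood 6 of the 10 genes, against 31.3% of all tested genes. With no filter on low values 0 of 28206 tested genes were called (5655 at an unadjusted p under 0.05). When the intensity trend of the variances was dropped, 1 of 15651 was called (4337 at an unadjusted p under 0.05). In both of these alternatives, 0 of the 10 genes were called, with 5 and 6 of them at an unadjusted p under 0.05. After GC correction 1 of the 10, DNMT3B, was called in place of 2. The cause of these losses was not tested. Leaving out a library gave 0 to 15 calls over all genes (for Flag, 1 without replicate 1 and 15 without replicate 2; for RNase H1, 0 and 1, with 3558, 3367, 3549 and 4035 genes at an unadjusted p under 0.05) and 0 of the 10 genes each time, with 3, 3, 4 and 2 of them at an unadjusted p under 0.05. The lone library is then assumed to vary like the other group, and 1 residual degree of freedom remains. The replicate block fit also keeps 1 residual degree of freedom and called 2442 genes. Why few genes passed without a library was not tested.

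The log2 fold change of DNMT3B lay between -0.39 and -0.29 over 14 settings (adjusted p 0.0198 to 0.178, called in 8), and that of TDG between 0.20 and 0.32 (0.0206 to 0.169, called in 7). Signs changed for genes near 0: UHRF1 was at 0.02 after GC correction, DNMT3A ranged from -0.12 to 0.03 and SYCP3 from -0.09 to 0.44 when a library was left out. The ratios of DNMT3B to DNMT3A and of UHRF1 to UHRF2 kept their direction in all their settings. With the replicate block 2442 genes and 3 of the 10 were called (DNMT3B, TDG and MBD4). The labels say of a number no more than that it counts replicates, so this fit is a check and not a paired design. Depth is unknown, and 2 libraries a group limit the precision.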
